A study of Mus musculus with 4 samples.

Results

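Transcript levels of 41 developmental regulators of the Nkx, Pax, Lhx and Fox families were followed in mouse embryonic stem (ES) cells on their way to a primed state, with and without a chromatin inhibitor. The genes were chosen by name. Every probe that the array design assigns to an Nkx gene, to Pax1 to Pax5 or Pax7 to Pax9, to Lhx2 to Lhx9, or to a Fox gene of the classes b, c, e, f, g, l and q was taken. This gave 57 probes for 41 of the 35923 genes measured, of which 14 were Nkx, 8 Pax, 7 Lhx and 12 Fox genes, and 12 genes had more than 1 probe. These families were selected on measured values, since Nkx2-9 was already known to be among the largest rises with CHQ on these arrays, so that its difference there is given as a description.

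The cells were of the ES line E14Tg2A (strain 129/Ola). The first group was undifferentiated ES cells at day 0, kept in serum with leukaemia inhibitory factor (LIF). The second group was epiblast-like aggregates (ELA), floating aggregates held for 2 days in minimal medium with neither serum nor LIF, which serve as a model of the primed epiblast. The other two groups were ELA formed in the presence of an inhibitor. One was 50 nM 5-Azacytidine (AZA), which blocks DNA methyltransferases, and the other was 100 µM 5-Carboxy-8-hydroxyquinoline (CHQ), which blocks lysine demethylases of histones. Each group was 1 line in culture and 1 array, hybridised with RNA pooled from 3 experiments, so no replicate array existed, no p-value was computed, and a difference below describes a pair of pools.

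These genes encode transcription factors that assign fates to cells of the embryo. Nkx and Lhx proteins bind DNA through a homeodomain, Pax proteins through a paired domain and Fox proteins through a forkhead domain. Many of them are held silent in pluripotent cells by Polycomb complexes and become active later, in restricted territories of the neural tube, pharynx, gut, heart or skeleton. In the ventral neural tube several Nkx genes, among them Nkx2-2, Nkx2-9, Nkx6-1 and Nkx6-2, respond to the morphogen Sonic hedgehog.

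All levels are log2 values of normalised intensity, in which background lay near 6. A probe was called detected where the scanner software marked it as well above background. Spots of the same probe differed by a pooled SD of 0.15 (log2) within an array, a spread of spotting and reading that holds no biological variation. The ES and ELA arrays lay on 1 slide and the AZA and CHQ arrays on another, with a median local background of 59 and 77 intensity units on the first slide and of 14 and 13 on the second. Hence ELA against ES and CHQ against AZA are comparisons within a slide, whereas in each treated array against ELA the slide and the treatment cannot be told apart. Both of those share the ELA array. The 6 pluripotency markers were detected on all 4 arrays, Pou5f1 (Oct4) with 14.93 (ES), 14.46 (ELA), 14.05 (AZA) and 13.57 (CHQ), so the marker of the labelled cell type was present throughout. The brightness of a probe also depends on its sequence, so levels are compared between arrays and not between genes.

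Nkx2-9, a homeobox gene of the ventral neural tube and pharyngeal endoderm, had the widest range over the 4 arrays among the 41 genes. Its log2 level was 9.35 (ES), 6.91 (ELA), 12.37 (AZA) and 13.33 (CHQ), and its single probe was detected on all 4 arrays. The level was thus lowest in ELA, and both treated arrays lay above both untreated ones. ELA was lower than ES by a log2 difference of -2.44, which is 5.42-fold on the linear scale. The difference from ELA was 5.46 with AZA (44.1-fold) and 6.42 with CHQ (85.4-fold), the 29th highest of 19114 and the 16th highest of 19131 genes that could be called. These folds rest on a dim ELA level, near the lowest detected level of that array (6.75). CHQ exceeded AZA by 0.95, just short of the log2 difference of 1 required for a call, and by 0.72 to 1.01 under the alternatives. Over the other scalings and the deposited values, these differences ranged from -3.22 to -2.28 for ELA against ES, from 5.11 to 6.42 for AZA against ELA and from 5.83 to 7.31 for CHQ against ELA.

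The Nkx2-9 probe lies on chromosome 12 from 57712410 to 57712469 (build mm9, minus strand). Its first 30 bases are shown because the strongest difference of the families rests on this probe alone.
Nkx2-9 probe, bases 1 to 30: gcgccagtcccagagcaagattttatttct
The probe contained no long simple repeat. The longest stretch built from a repeated pair of bases was 5 bases long and its share of G and C was 35.0%.

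Markers of other cell types moved on the same arrays. Of 6 endoderm markers, 3 were detected on the ES and ELA arrays and 6 on the AZA and CHQ arrays. Of all genes not detected in ELA, 36.3% were detected with AZA and 36.9% with CHQ, where the local background was lower. What the slide contributed to these counts was not tested. The log2 of the summed intensity of the 6 markers was 9.45, 10.16, 10.21 and 11.50 for ES, ELA, AZA and CHQ. Gata6, a regulator of primitive endoderm, had 6.41, 6.70, 8.06 and 9.89 in that order, and Sox17, a regulator of endoderm, had 6.37, 6.77, 7.76 and 9.51. Against ELA, 5 of the 6 could be called with CHQ, of which 2 were called higher and 1, Foxa2, lower. With AZA 3 could be called, of which 0 were higher and 1, Foxa2 (-1.82), was lower. The secreted endoderm protein Afp had 6.27, 6.06, 6.88 and 8.56. Of the 6 pluripotency markers, Klf4, Zfp42 and Esrrb were called lower in ELA than in ES and higher with each treatment than in ELA. Nanog, also called lower in ELA than in ES, was called higher than ELA with AZA but differed by 0.0094 with CHQ. Sox2 had differences of 0.98 (AZA) and 0.64 (CHQ) from ELA and Pou5f1 of -0.41 and -0.89, none of them called. Klf4, for instance, had 12.53 (ES), 9.50 (ELA), 13.58 (AZA) and 13.00 (CHQ). Of 4 markers of the primed epiblast, Fgf5 was called lower than ELA with both treatments (-2.54 with AZA and -1.15 with CHQ) and Pou3f1 (-1.54) and Dnmt3b (-1.67) with AZA, and the log2 of their summed intensity was 17.84, 18.86, 17.64 and 18.12. Of 4 trophoblast markers, the keratins Krt8 (-1.80 and -1.20) and Krt18 (-1.48 and -2.23) were called lower with AZA and CHQ, where the log2 sums were 16.81, 16.42, 14.87 and 14.52, while the defining factors Cdx2 and Elf5 lay between 5.91 and 6.85. Of 5 mesoderm markers, 1 could be called against ELA with each treatment and it was not called, and the log2 sums were 9.56, 9.60, 10.01 and 10.28. Mesp1, a factor of early mesoderm too dim for a call against ELA, had 6.78 (ES) and 5.93 (ELA), both not well above background, and 7.75 (AZA) and 7.89 (CHQ). The part of these shifts in the levels of Nkx2-9 and the other family members was not tested. In bulk RNA of this kind, more cells that express a gene and more RNA per cell cannot be told apart.

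**Figure D1:**
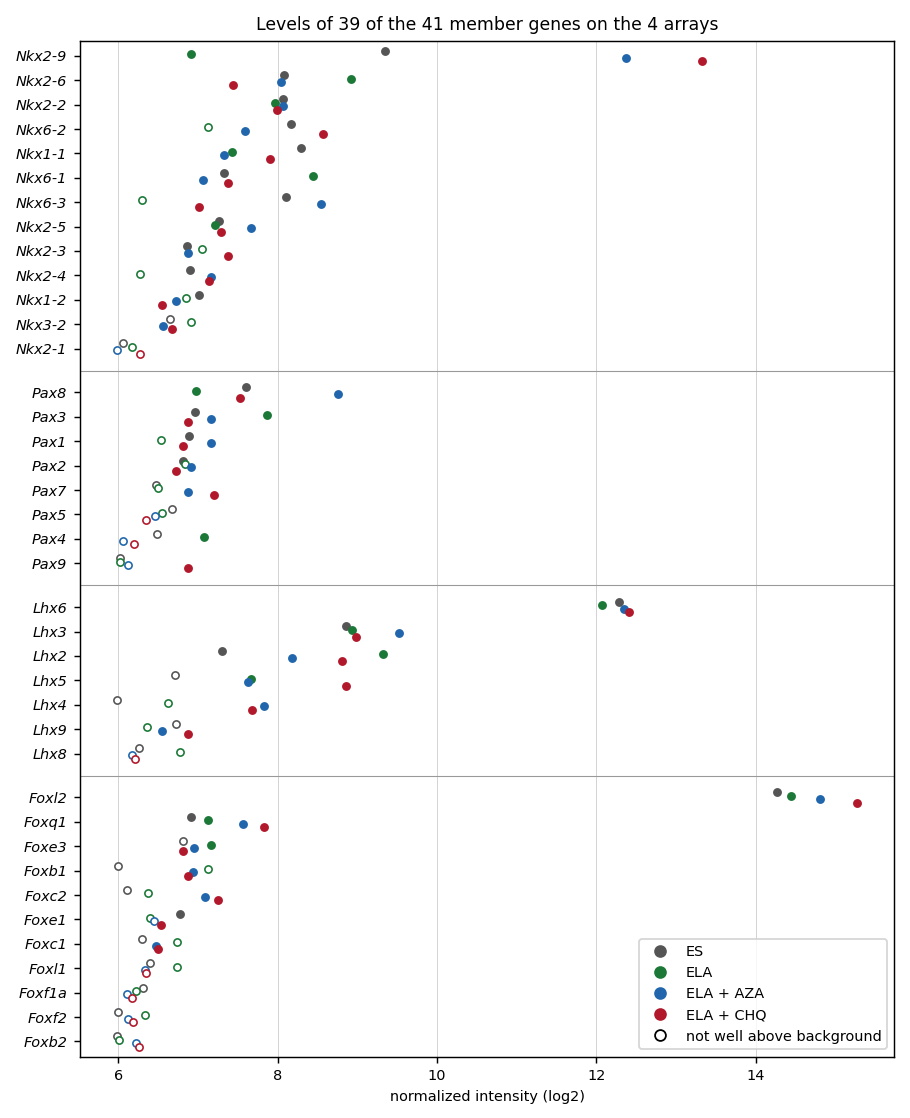
Normalised intensity (log2, horizontal axis) of 39 of the 41 genes, ordered within each family, with 1 point per array and open points where the probe was not well above background. Nkx2-9 stands at 12.37 and 13.33 on the AZA and CHQ arrays, while most genes stay between 6 and 9.

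Read at their brightest probe, 34 of the 41 genes were detected on at least 1 array and 15 on all 4. Foxb2, Foxf1a, Foxf2, Foxl1, Lhx8, Nkx2-1 and Pax5 were detected on none, with levels between 5.99 and 6.77. Pax4, a factor of endocrine pancreas, was detected in ELA alone (7.07), and Pax9, a factor of the pharyngeal pouches, with CHQ alone (6.87, at 1 of 2 probes). By array, ES had 23 genes detected (56.1%), ELA 18 (43.9%), AZA 31 (75.6%) and CHQ 33 (80.5%). Among all genes the shares were 65.4%, 60.4%, 73.1% and 73.5%, so that the families lay below all genes on the first slide and above them on the second. Of the Nkx genes, 12 of 14 were detected in ES, 7 in ELA and 13 on each treated array. Of the 12 Fox genes, the ES, ELA, AZA and CHQ arrays had 4, 4, 7 and 8. Pax genes gave 4, 3, 5 and 6 of 8, and Lhx genes 3, 4, 6 and 6 of 7.

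Of the 23 genes not detected in ELA, 14 (60.9%) were detected with AZA, where 36.3% of all such genes were, and 16 (69.6%) with CHQ, where the share of all such genes was 36.9%. The 14 genes gained with AZA were also detected with CHQ. Of those 14 genes, 5 had a lower level with AZA than in ELA (35.7%, against 21.1% of all genes gained), and of the 16 gained with CHQ, 5 did (31.2%, against 21.7%), so the flag did not follow the level in each gene. One of the 23, Nkx1-2, was detected in ELA at another of its 3 probes (7.40, against 6.40 with AZA and 6.51 with CHQ). With a gene counted as detected at any probe, a setting chosen after seeing the data, 19 genes were detected in ELA, and of the other 22, 13 (59.1%) were gained with AZA and 15 (68.2%) with CHQ, against 36.3% and 36.9% of all genes. The local background was lower on the slide of the treated arrays, and its part in these counts was not tested. The counts depend on how presence is called. When a processed signal above the 95th percentile of the negative control spots was required instead of the scanner flag, 9 genes were absent in ELA, of which 4 were present with AZA and 4 with CHQ, near the shares of all genes (42.5% and 36.6%). Of the 15 genes detected in neither ES nor ELA, 7 were detected with both treatments (46.7%, against 17.4% of all such genes). They were Foxb1, Foxc1, Foxc2, Lhx4, Lhx9, Nkx3-2 and Pax7, named here after their values were seen. The level of 3 of these was lower on both treated arrays than in ELA. Foxb1, a forkhead factor of the early nervous system, had 5.99 (ES), 7.12 (ELA), 6.94 (AZA) and 6.87 (CHQ). Foxc1 had 6.29, 6.73, 6.47 and 6.49, and Nkx3-2, a factor of the axial skeleton, had 6.65, 6.92, 6.56 and 6.68. Both treated arrays were above ELA for the other four. Lhx9 had 6.73, 6.36, 6.55 and 6.87, and Pax7, a factor of dorsal neural tube and muscle progenitors, had 6.47, 6.50, 6.88 and 7.20. Lhx4, a factor of motor neurons and pituitary, had 5.98 (ES), 6.63 (ELA), 7.83 (AZA) and 7.68 (CHQ). Foxc2, a factor of mesenchyme and vessels, had 6.11, 6.38, 7.09 and 7.25.

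A difference was called on 3 conditions. It had to reach 1 on the log2 scale in either direction, with the pair of arrays averaging 7.5 or more and the probe detected on 1 or both. With 28 of the 41 genes below a mean of 7.5 over the 4 arrays, few could be called. Over the 4 comparisons, 17 differences in 9 genes were called, among them Nkx2-6, Nkx2-9, Nkx6-1, Nkx6-2, Nkx6-3, Pax8, Lhx2 and Lhx5.

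Between ES and ELA, 11 genes could be called, of which 2 were higher and 2 lower in ELA, beside 4.52% of all 18921 such genes called higher and 5.49% called lower. The median difference of the 11 genes was 0.087, and that of all genes was -0.0070. Under a scaling to spike-in transcripts they were -0.53 and -0.60. Lhx2, a factor of forebrain and eye, had 7.30 (ES), 9.32 (ELA), 8.18 (AZA) and 8.80 (CHQ). It was highest in ELA, 2.02 above ES. Nkx6-1, a factor of motor neurons and pancreatic beta cells, had 7.32, 8.45, 7.06 and 7.38, so that ELA stood 1.12 above ES (0.59 under the spike-in scaling, short of a call) and the other three arrays lay close together. Nkx6-2, a related factor of the ventral neural tube, went the other way, with 8.17 in ES and 7.12 in ELA, where it was not well above background. It was at least 2.07-fold higher in ES, and with quantiles taken within the slide the difference was -0.95, short of a call. Nkx2-9 was the fourth gene called.

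With AZA, 12 genes could be called against ELA, of which 2 were higher and 2 lower (all genes, 14.2% higher and 11.4% lower of 19114). The median difference was 0.19, against -0.072 for all genes, but -0.023 under the spike-in scaling, which moved the median of all genes to -0.27. Under that scaling 2 genes were higher and 4 lower (all genes, 12.2% and 15.5%). Without the filter on dim probes 7 of 41 genes were called, 4 higher and 3 lower, beside 9.43% and 7.57% of all genes. Besides Nkx2-9, Pax8, a factor of thyroid and kidney, was higher. Its levels were 7.60 (ES), 6.97 (ELA), 8.75 (AZA) and 7.53 (CHQ), a difference of 1.78 from ELA, and the AZA array was the highest of the 4. Lhx2 was lower by a difference of -1.14 and Nkx6-1 by -1.38, so that the 2 genes higher in ELA than in ES were both lower on the AZA array than in ELA. The ELA array enters both of these comparisons.

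With CHQ, 13 genes could be called against ELA, of which 4 were higher and 2 lower (all genes, 14.8% higher and 11.9% lower of 19131). The median difference was 0.48, against -0.079 for all genes, and without the filter on dim probes it was 0.14 over the 41 genes, against -0.050. Under the spike-in scaling 2 genes were higher and 2 lower (all genes, 10.8% and 23.0%), with a median of 0.077 against -0.41 for all genes. After Nkx2-9 came Nkx6-2, with 7.12 in ELA, 7.59 with AZA and 8.56 with CHQ, at least 2.71-fold higher with CHQ in the reported values. With CHQ the difference was 1.44, and 1.01 under the spike-in scaling. Lhx5, a factor of the early forebrain, had 6.71 (ES, not well above background), 7.66 (ELA), 7.63 (AZA) and 8.85 (CHQ). Its difference from ELA was 1.19, and 0.87 under the spike-in scaling. Nkx2-6, a factor of pharynx and heart, had 8.08 (ES), 8.92 (ELA), 8.04 (AZA) and 7.43 (CHQ), which was the lowest of the 4 and differed by -1.49 from ELA. Nkx6-1 was lower by -1.07.

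Between the treatments, on 1 slide, 16 genes could be called, of which 1 was higher and 2 were lower with CHQ (all genes, 5.61% higher and 4.8% lower of 19123). The median difference was 0.29, against -0.021 for all genes, and without the filter on dim probes it was 0.062 over the 41 genes. Lhx5 was 1.22 higher with CHQ than with AZA, although its level with AZA was within the spot SD of that in ELA. Pax8 was lower with CHQ by -1.22. Nkx6-3, a factor of stomach and ventral hindbrain, had 8.10 (ES), 6.30 (ELA, not well above background), 8.55 (AZA) and 7.02 (CHQ), a difference of -1.53 between CHQ and AZA. It was at least 2.55-fold higher in ES than in ELA and at least 3.48-fold higher with AZA than in ELA, but neither was called, since the mean of both arrays fell below 7.5. A second Nkx6-3 probe, on the same chromosome 8 (24268527 to 24268586, against 24268914 to 24268973 for the first), was not well above background on any array, with 6.43, 6.67, 6.47 and 6.27. The Nkx6-3 call thus rests on 1 of 2 probes, and the mean over both gave -0.87.

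**Figure D2:**
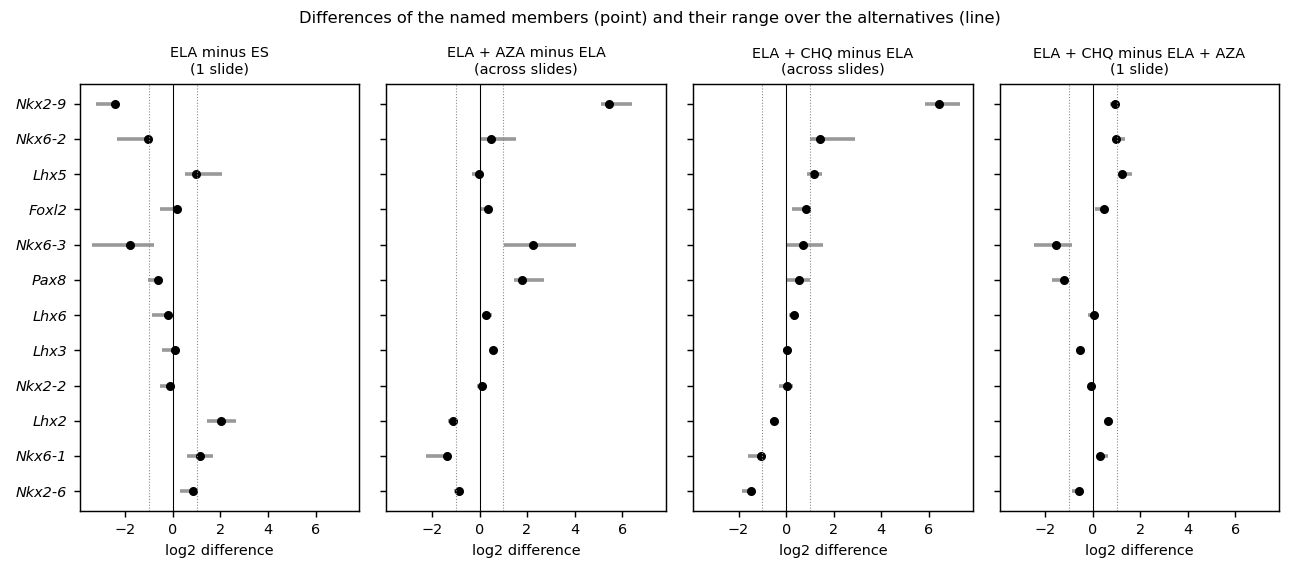
Log2 difference (horizontal axis) of 12 named genes in the 4 comparisons, with the reported value as a point and the range over the other scalings, the deposited values and the mean over probes as a line. Dotted lines mark the difference of 1 in each direction. Nkx2-9 lies at 5.46 and 6.42 against ELA, with lines that stay above 5, and at 0.95 between the treatments.

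The named genes without a call were Foxl2, Lhx6, Lhx3 and Nkx2-2, which are given because their means over the 4 arrays were among the 8 highest. Lhx3, a factor of motor neurons and pituitary, had 8.85 (ES), 8.94 (ELA), 9.52 (AZA) and 8.99 (CHQ). The AZA array was the highest, by 0.58 over ELA. Nkx2-2, which specifies ventral interneurons, had 8.07, 7.97, 8.06 and 7.99 at its brighter probe, a range below the spot SD. Its second probe had 6.32, 6.36, 6.63 and 6.90 and was detected on the treated arrays only. The 28 genes not named by the rule stayed between 5.98 and 8.30 on every array, counting the 21 that were detected at least once.

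Foxl2, a factor of ovary and eyelid, and Lhx6, a factor of cortical interneurons, were much brighter at 1 probe than at the others. The Foxl2 probes overlap on chromosome 9 (98856894 to 98856950 and 98856846 to 98856905). The first had 14.27 (ES), 14.44 (ELA), 14.81 (AZA) and 15.27 (CHQ). The second had 7.35, 7.42, 7.60 and 7.32 and was detected on all 4 arrays. Their sequences are shown because the 2 probes share 12 bases, in capitals, and differ in the rest.
Foxl2 bright probe: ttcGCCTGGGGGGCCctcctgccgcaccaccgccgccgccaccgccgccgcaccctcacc
Foxl2 dim probe: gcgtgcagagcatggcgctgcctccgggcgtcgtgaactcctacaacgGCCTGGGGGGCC
The bright probe was made of G and C to 81.7% and the dim one to 71.7%. On this array 24 probes reached the G and C share of the bright probe, of which 21 (87.5%) were detected on all 4 arrays, against 51.1% of all 55122 probes. Their median level in ELA was 10.75, and 6 (25.0%) reached the ELA level of the bright probe. Of 191 probes with at least the G and C share of the dim probe, 80.6% were detected on all 4 arrays. The bright Lhx6 probe (chromosome 2, 35937644 to 35937703) had 12.28, 12.07, 12.34 and 12.40, whereas another of the 3 Lhx6 probes (35937470 to 35937529), had 7.39, 6.27, 7.28 and 6.80. The bright probe ended in a CA repeat of 29 bases, in capitals.
Lhx6 bright probe, bases 31 to 60: aACACACACACACACACACACACACACACA
In all, 24 probes of the array held a CA repeat of at least 20 bases, and 24 of these were detected on all 4 arrays, with a median level of 12.9 in ELA against 7.21 for all probes. How much of the bright Foxl2 and Lhx6 readings comes from transcripts of these genes was not tested.

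**Figure D3:**
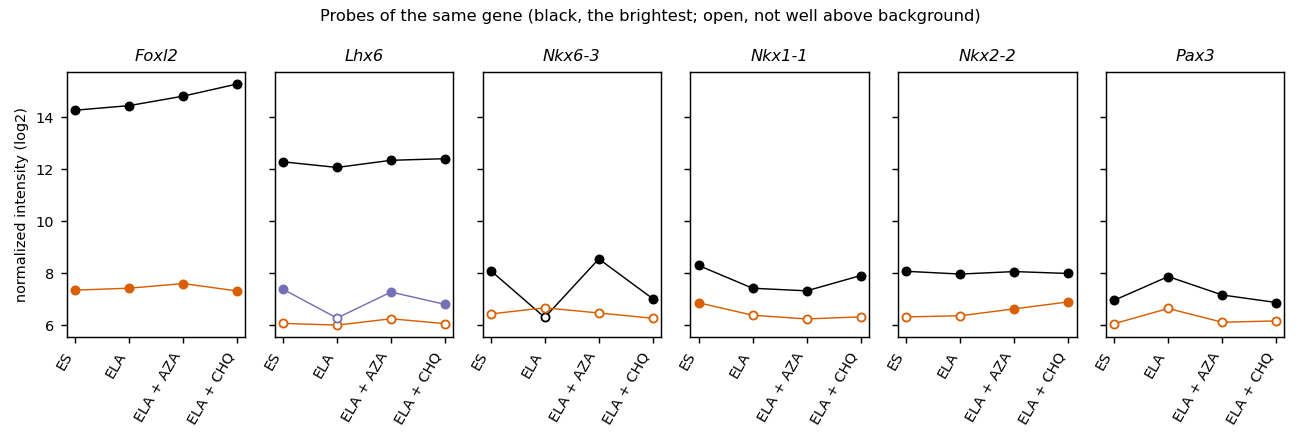
Normalised intensity (log2, vertical axis) of each probe of 6 genes with more than 1 probe on the 4 arrays, the brightest probe in black and open points where the probe was not well above background. The 2 Foxl2 probes read 14.44 and 7.42 in ELA.

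Pax1, a factor of vertebral column and thymus, was spotted 10 times on each array, which gives a spot error. Its level was 6.88 ± 0.15 (ES), 6.54 ± 0.23 (ELA), 7.16 ± 0.15 (AZA) and 6.81 ± 0.12 (CHQ), each as mean ± SD of n = 10 spots of 1 array. These spots are no replicates of a condition, the ELA and AZA arrays lay on different slides, and Pax1 was not called. Of the spots, 7, 0, 10 and 10 were well above background in ES, ELA, AZA and CHQ. Nkx2-1, a factor of thyroid, lung and ventral forebrain, was spotted as often and had 0 such spots on each array, with means from 5.99 to 6.27.

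Of the families, 14 genes lie in 5 neighbourhoods, where successive probes start less than 500000 bases apart, and 4 of these are described. On chromosome 12, Nkx2-1, Nkx2-9 and Pax9 lie within 178.1 kb, and of these Nkx2-9 alone was called. Nkx2-1 stayed between 5.99 and 6.27, not well above background on any array, and Pax9 between 6.02 and 6.87. A probe without a gene name, at 84.5 kb in this stretch beside Nkx2-9 at 79.3 kb, had 9.36 (ES), 9.49 (ELA), 9.30 (AZA) and 9.08 (CHQ), so that it held its level where Nkx2-9 differed by 6.42. On chromosome 2, Nkx2-4, Nkx2-2 and Pax1 lie within 290.8 kb. Nkx2-4 had 6.90 (ES), 6.28 (ELA, not well above background), 7.17 (AZA) and 7.14 (CHQ), and neither it nor Nkx2-2 nor Pax1 was called. Between them, just beside Nkx2-2, the array held 2 overlapping probes for transcripts without a gene symbol, and these were higher on the treated arrays. The first had 6.68 (ES), 6.03 (ELA), 8.83 (AZA) and 9.64 (CHQ), and the second 6.16, 7.48, 8.52 and 9.09.

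Of 6 Fox genes in clusters, 3 were detected on no array. On chromosome 13, Foxq1 was detected on all 4 arrays, with 6.91, 7.13, 7.56 and 7.83. Foxc1, 250.2 kb away, had 6.29 to 6.73, and Foxf2 between them 5.99 to 6.34. On chromosome 8, Foxc2 was detected on the treated arrays, whereas Foxf1a and Foxl1, which lie with it within 43.7 kb, were not well above background on any array. Mthfsd, the gene between Foxf1a and Foxc2, had 9.48, 9.59, 8.97 and 9.14.

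**Figure D4:**
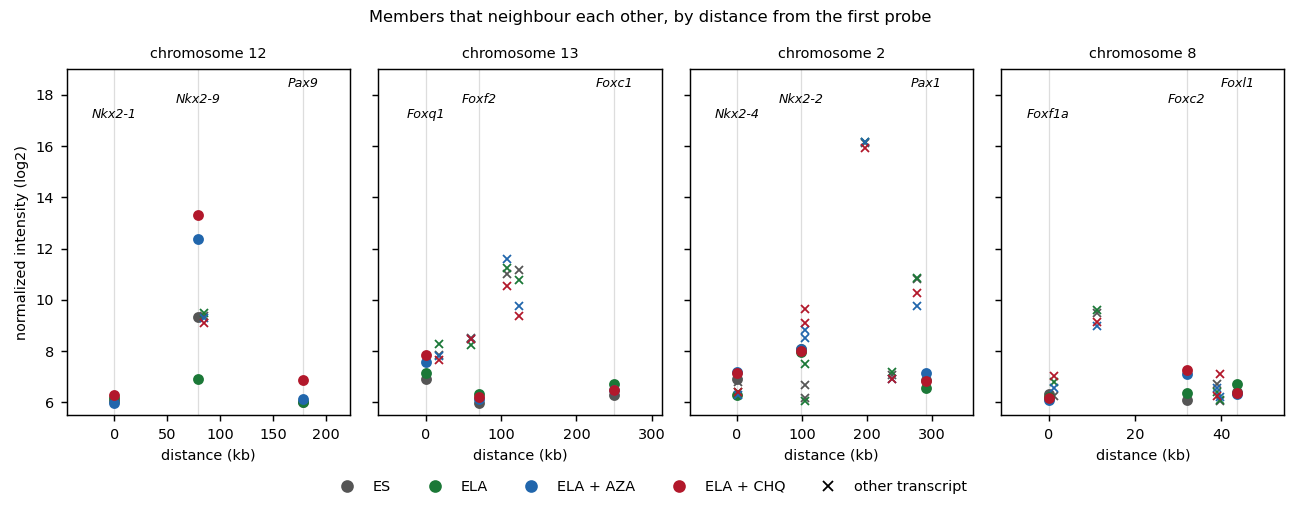
Normalised intensity (log2, vertical axis) of neighbouring genes on 4 chromosomes against the distance of their probes from the first (kb), with circles for the families and crosses for other transcripts. On chromosome 12, Nkx2-9 ranges from 6.91 to 13.33 while Nkx2-1 and Pax9 stay between 5.99 and 6.87, and on chromosome 2 the crosses beside Nkx2-2 reach 9.64.

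AZA acts on the methylation of CpG sites, so the promoters were read for their CpG content, although methylation itself was not measured here. RefSeq sequences (build GRCm38.p6, 250 bases before to 50 after a start) were matched by symbol for 28 of the 41 genes, with 34 windows. Their median ratio of observed to expected CpG was 0.66, against 0.38 over all 32851 windows, and 21 of 34 (61.8%) reached 0.6, against 35.8% of all windows. The range ran from 0.24 at Lhx8 to 1.18 at Nkx6-1. Among genes with calls, Nkx2-9 had 0.57, Pax8 0.29, Nkx6-2 0.97 and the 2 windows of Lhx2 0.89 and 0.84. Of the 4 genes called with AZA, the 2 higher ones had lower ratios than the 2 lower ones, which is given as a description. The 250 bases before the start are shown for the 3 neighbours of chromosome 12, of which Nkx2-9 alone was called, and for Nkx6-1, which had the highest ratio and was lower with both treatments. CpG sites are in capitals.
Nkx2-9, chr12:56613285-56613534, minus strand: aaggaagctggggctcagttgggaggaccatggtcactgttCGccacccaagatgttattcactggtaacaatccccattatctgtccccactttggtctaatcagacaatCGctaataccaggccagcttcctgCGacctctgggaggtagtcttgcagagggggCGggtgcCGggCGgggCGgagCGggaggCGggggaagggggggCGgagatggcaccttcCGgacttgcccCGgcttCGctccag
Nkx2-1, chr12:56536909-56537158, minus strand: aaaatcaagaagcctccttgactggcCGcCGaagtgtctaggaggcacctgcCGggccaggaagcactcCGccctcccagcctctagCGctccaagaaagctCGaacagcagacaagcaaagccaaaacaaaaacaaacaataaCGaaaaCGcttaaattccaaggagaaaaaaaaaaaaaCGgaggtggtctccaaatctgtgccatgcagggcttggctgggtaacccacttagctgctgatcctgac
Pax9, chr12:56695221-56695470, plus strand: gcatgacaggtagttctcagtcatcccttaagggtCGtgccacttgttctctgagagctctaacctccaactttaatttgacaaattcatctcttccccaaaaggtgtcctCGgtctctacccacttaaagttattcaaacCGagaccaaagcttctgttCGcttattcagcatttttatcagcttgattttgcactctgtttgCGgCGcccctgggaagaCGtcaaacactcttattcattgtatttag
Nkx6-1, chr5:101664712-101664961, minus strand: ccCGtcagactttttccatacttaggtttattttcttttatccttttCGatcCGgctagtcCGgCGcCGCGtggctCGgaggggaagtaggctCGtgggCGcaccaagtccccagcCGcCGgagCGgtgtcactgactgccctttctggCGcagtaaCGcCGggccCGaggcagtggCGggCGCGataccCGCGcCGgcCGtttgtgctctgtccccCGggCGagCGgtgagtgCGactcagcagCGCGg
These stretches hold 13, 9, 7 and 30 CpG sites. The letters ACGTG, the core of the hypoxia response element, occurred on either strand in 7 of the 34 windows (20.6%), against 19.6% of all windows. The GLI motif TGGGTGGTC occurred in 0 of the 34 windows, against 0.253% of all windows. A match of letters is no evidence of binding, and a window without one says only that these letters are not in it.

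**Figure D5:**
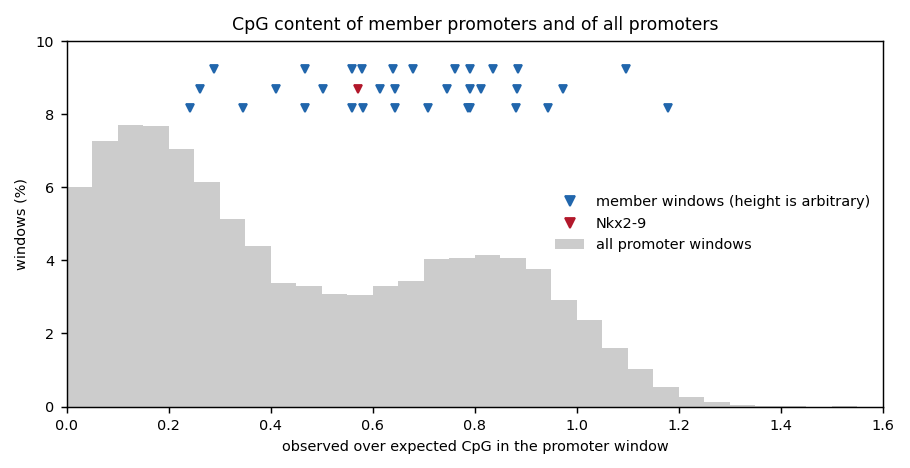
Share of all RefSeq promoter windows (%, vertical axis) by their ratio of observed to expected CpG (horizontal axis), with a triangle for each of the 34 family windows at arbitrary height. The triangles spread from 0.24 to 1.18, and Nkx2-9 lies at 0.57.

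Genes that work with these factors were read next, in lists chosen with results of these arrays known. In the Sonic hedgehog pathway (19 genes), which patterns Nkx expression in the ventral neural tube, 17 genes could be called with AZA, of which 2 were higher and 4 lower, and 16 with CHQ, of which 2 were higher and 2 lower. These counts and those of the lists that follow stand beside 14.2% higher and 11.4% lower of all genes with AZA, and 14.8% and 11.9% with CHQ. Shh itself was not well above background on any array, with levels between 5.97 and 6.07. Scube2, a secreted protein that helps to release hedgehog ligands, had 7.71 (ES), 7.08 (ELA), 8.61 (AZA) and 8.97 (CHQ). The effector Gli3 had 11.02, 11.72, 9.16 and 11.77, with AZA the lowest array. Dhh, a related ligand, had 8.58, 7.92, 9.55 and 10.32, lowest in ELA and highest with CHQ, the order seen for Nkx2-9. Scube2 followed the same order, whereas Smo (-1.55 and -1.79) and Gas1 (-1.28 and -1.24) were called lower than ELA with AZA and CHQ.

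Among 15 LIM-domain partners, which bind Lhx proteins or share their LIM domain, AZA had 2 calls upwards and 5 downwards of 11 that could be called, and CHQ had 1 and 4 of 12. Lmo2 had 7.32 (ES), 9.15 (ELA), 7.69 (AZA) and 7.99 (CHQ), and Isl1 had 6.84, 8.57, 7.05 and 7.19. Both were highest in ELA, as Lhx2 was. Lmx1a, a LIM homeobox gene of dorsal neural tube and midbrain, had 6.80, 6.37, 7.43 and 8.75 and was called higher with CHQ alone. The next list held 7 genes, Hes1 and the Groucho/TLE corepressors through which many of these factors repress. Its calls upwards and downwards were 2 and 0 of 7 for AZA, and 2 and 2 of 6 for CHQ. Tle6 had 8.50 in ELA against 11.50 and 10.85 on the treated arrays, and Tle4 had 10.36, 9.59, 10.05 and 11.29.

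Pax and Fox genes outside the chosen classes (33 genes) had 3 calls upwards and 7 downwards of 22 for AZA, and 2 and 5 of 20 for CHQ. Foxa2, a factor of endoderm and floor plate, had 6.82 (ES), 8.63 (ELA), 6.81 (AZA) and 7.62 (CHQ), and Foxn4, a factor of retina and spinal cord, had 10.83, 10.68, 11.28 and 12.59. Of 21 genes for Polycomb proteins and the demethylases that oppose them, the calls were 3 and 1 of 20 for AZA, and 4 and 2 of 21 for CHQ. Cbx2 had 11.46, 12.61, 10.72 and 10.11, lowest with CHQ, and Phc1 had 13.16, 13.29, 14.84 and 15.41, highest with CHQ. The medians of these 5 lists against ELA were -0.14, -0.92, 0.68, -0.35 and 0.44 with AZA and -0.17, -0.65, 0.41, -0.11 and 0.048 with CHQ, in the order in which the lists are given. Of 5 neural markers on the array, Nes and Tubb3 were called lower with both treatments. Tubb3, a tubulin of neurons, had 12.62, 13.30, 10.66 and 10.02, while Lhx5, a factor of the early forebrain, was higher with CHQ.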

How the data were processed

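RNA of E14Tg2A ES cells and ELA was hybridised to 4 single-colour arrays of 60-base probes (Cy3). The authors pooled 3 experiments per array and, per the file headers, read the scans with Agilent Feature Extraction 10.7.3.1 (build mm9). The deposited scanner files hold intensity per spot, not normalised between arrays. The value table deposited by the authors holds log2 values, background-corrected and quantile-normalised with limma. It is not centred. Its medians lay between 6.21 and 6.24, and it correlated at 0.9991 to 0.9993 with a normexp correction without an offset.

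In R 4.3.3 with limma 3.58.1, normexp was applied to the mean and local background intensity with an offset of 50. Control spots entered this step but not the quantile normalisation. The 4 arrays were quantile-normalised, outlier spots removed (188 to 523 per array) and the spots of a probe averaged. Of 55681 probes, 559 without a usable spot on an array were left out. A gene was read at its brightest probe over the 4 arrays, and named by the array design. An accession was found in RefSeq for 54 of the 57 member probes, with the same symbol for 53 and an updated one for Foxf1a (Foxf1). Where a probe was not well above background, the fold is a bound against the lowest detected level of that array or the probe's own value, whichever was higher. Such a bound holds for the reported scaling only. Precision is limited by the number of arrays.

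Genes and lists were chosen with earlier results of these data known. Named with all levels are genes called in any comparison and the 8 with the highest mean. From each list, at most 3 called genes with the largest difference are named, also with all levels. Shh is named besides, as the ligand, and Smo and Gas1 are given as differences. Processed signals scaled to the 75th percentile, no offset, the deposited values, quantiles within a slide, a spike-in shift, other filters on dim probes and the mean over probes were tried as alternatives. An array of a knockdown was not analysed here. Some members are not reported by name.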

Additional observations from a re-analysis of the deposited data

How the results depend on the processing

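No paired analysis was possible because each group had 1 array. For the same reason no array could be left out. None of the 17 called differences changed sign under the 75th percentile, no offset, the spike-in shift, the deposited values or the mean over probes, nor did the 7 within a slide with quantiles taken within the slide, which was not run across slides. In 5 cases a called difference fell short of 1 under a setting. Among them were Nkx6-2 in ELA against ES with quantiles within the slide (-0.95), Nkx6-3 in CHQ against AZA with the mean over probes (-0.87) and, under the spike-in shift, Nkx6-1 in ELA against ES (0.59) and Lhx5 (0.87) in CHQ against ELA. Under the spike-in shift, which moved the median of all genes to -0.60 (ELA against ES), -0.27 (AZA against ELA), -0.41 (CHQ against ELA) and -0.18 (CHQ against AZA), the member median was -0.53 for ELA against ES, -0.023 for AZA against ELA and 0.077 for CHQ against ELA. That shift also changed the share of all genes called higher and lower, to 1.51% and 19.5% for ELA against ES and to 10.8% and 23.0% for CHQ against ELA. The 75th percentile moved the median of all genes to -0.20 and -0.25 for AZA and CHQ against ELA, and the member median to 0.31 for CHQ against ELA. Without an offset that median was 0.65. With no filter on dim probes the member median was 0.14 for CHQ against ELA and 0.062 for CHQ against AZA, where a minimum mean of 6 gave 0.095. The mean over probes gave 0.39 for AZA against ELA. Of counts, 7 members were called for AZA against ELA both without the filter (of 41, with 9.43% of all genes higher and 7.57% lower) and at a minimum mean of 6 (of 32, with 12.6% and 10.1%), and 5 of 16 for CHQ against AZA in the deposited values (6.92% and 5.97%). With negative control spots as the measure of presence, 4 members were gained with AZA and 4 with CHQ, of 9 absent in ELA. The causes were not tested. The other 31 counts and 25 medians stayed within 1.5 times or the spot SD of the values reported. Dim probes limit what can be said, since the offset shrinks their differences, and 28 of the 41 genes had a mean below 7.5.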
